A study of Mus musculus with 79 samples.

Results

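Bivalent promoters carry both H3K4me3, the mark of active or poised starts of transcription, and H3K27me3, the mark laid down by Polycomb repressive complex 2. In the mouse adult hypothalamus, 915 promoters among 24483 autosomal promoters (3.74%) met this description. A promoter was taken as the stretch from 1500 bp before to 500 bp after the gene start. It was kept where the mean over the 3 wild-type (+/+) animals was at least 2 RPM for H3K27me3 and at least 5 RPM for H3K4me3. RPM is the read count of a tile scaled to a common library size. The promoters were thus chosen by the +/+ values of both marks, and these are given here as a description with no test. Of the remaining promoters, 1644 passed for H3K27me3 only, 11855 for H3K4me3 only and 10069 for neither mark.

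The samples were hypothalami of C57BL/6Babr mice aged 14 weeks. The +/+ animals had 2 intact Dnmt3a alleles. The Δ/D329A animals carried, as the maternal allele, Dnmt3a without exon 18, deleted in the oocyte by Zp3-Cre, and as the other allele the D329A point mutation in exon 8. D329A alters the PWWP domain of the de novo DNA methyltransferase DNMT3A, a domain that reads methylated histone H3 lysine 36, and it was the only functional form of the enzyme in these animals. RNA-seq covered 5 +/+ and 4 Δ/D329A animals. ChIP-seq covered 3 +/+ and 3 Δ/D329A animals, each animal giving libraries for H3K4me3, H3K27me3, H3K36me3 and input. The labels give no sex, and the legends of the study differ for the RNA animals. In the files, Xist had 2694 to 7044 reads in the RNA libraries and the Y-linked genes Kdm5d, Uty and Ddx3y had at most 1, while the 6 inputs had 0.417 to 0.429 times the autosomal median over X tiles. The RNA values were thus those of females and the input values those of males, so expression and chromatin came from different animals. Both assays used whole tissue, so both marks on one chromosome and each mark in a different cell type cannot be told apart. Equally, fewer cells of a type and less RNA per cell cannot be told apart.

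In embryonic stem cells bivalency is known for keeping developmental regulators silent yet able to be activated, and it is largely found at CpG-rich promoters. In most lineages a bivalent promoter resolves towards H3K4me3 alone or H3K27me3 alone. Promoters with both marks in adult brain include those of transcription factors that are used in some neurons and silenced in others.

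Sequenced depth ran from 3871244 to 9969030 reads on genes in the RNA libraries and from 12676361 to 30207876 uniquely mapped reads in the ChIP libraries. All 10 hypothalamic identity genes checked were read, with a summed level of 345 to 723 RPKM in +/+ and 398 to 595 RPKM in Δ/D329A. RPKM is the read count of a gene scaled to gene length and library size. Dnmt3a itself, whose own promoter had H3K4me3 only, gave log2 RPKM values of 2.11, 1.85, 1.85, 1.71 and 2.04 in +/+ and 1.66, 1.51, 1.65 and 1.72 in Δ/D329A. The groups overlapped, and the difference of -0.28 had an adjusted p of 0.36 by limma. A whole-gene value shows neither the point mutation nor the deleted exon. One H3K4me3 library, Δ/D329A replicate 1, stood apart with a median of 0.376 RPM over autosomal tiles against 0.129 to 0.20 RPM in the other 5. The main H3K4me3 counts are therefore also given without it.

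The promoters of 4 genes show what these regions look like in sequence. They were chosen because the results below turn on them: Nr2e1 and Cbx8 for expression, Onecut1 for a change of both marks and Cdkn2b for H3K36me3. Each run gives the 250 bases before the RefSeq start, 5′ to 3′ in the direction of the gene on GRCm38.p6, with every CG dinucleotide in capitals.
Nr2e1 chr10:42583591-42583840, minus strand: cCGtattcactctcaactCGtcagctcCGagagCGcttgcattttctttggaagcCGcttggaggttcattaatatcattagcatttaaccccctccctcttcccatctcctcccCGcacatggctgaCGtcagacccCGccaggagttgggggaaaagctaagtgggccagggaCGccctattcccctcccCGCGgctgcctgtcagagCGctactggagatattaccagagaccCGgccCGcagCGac
Cbx8 chr11:119040914-119041163, minus strand: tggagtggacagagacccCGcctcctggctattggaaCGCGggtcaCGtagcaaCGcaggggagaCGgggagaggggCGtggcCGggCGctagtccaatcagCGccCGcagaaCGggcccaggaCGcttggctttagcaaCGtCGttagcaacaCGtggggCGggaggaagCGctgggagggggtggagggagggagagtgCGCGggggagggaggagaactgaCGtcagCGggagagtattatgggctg
Onecut1 chr9:74861671-74861920, plus strand: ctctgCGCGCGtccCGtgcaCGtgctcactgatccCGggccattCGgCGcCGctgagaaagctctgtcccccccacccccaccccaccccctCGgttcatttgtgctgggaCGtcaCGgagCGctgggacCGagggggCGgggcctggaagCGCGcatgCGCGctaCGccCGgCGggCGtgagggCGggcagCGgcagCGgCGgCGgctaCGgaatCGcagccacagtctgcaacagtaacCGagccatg
Cdkn2b chr4:89311033-89311282, minus strand: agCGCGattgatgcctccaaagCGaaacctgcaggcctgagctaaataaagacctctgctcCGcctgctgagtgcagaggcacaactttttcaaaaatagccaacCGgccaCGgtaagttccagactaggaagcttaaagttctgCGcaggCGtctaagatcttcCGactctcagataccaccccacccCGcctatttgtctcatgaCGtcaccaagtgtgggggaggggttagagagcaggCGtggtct
CG is the dinucleotide that DNA methyltransferases act on. The Onecut1 run held 31 CG dinucleotides, that of Cbx8 22, that of Nr2e1 15 and that of Cdkn2b 12. Over the 797 RefSeq promoters of the same length that belong to bivalent genes the median was 12, and over all 32851 RefSeq promoters it was 6. At least 1 CG was present in 99.4% of the former and 92.1% of the latter.

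Over the full window of 2 kb, bivalent promoters were rich in CpG, a property that the choice of promoters did not use. The median ratio of observed to expected CpG was 0.547, against 0.345 at promoters with H3K27me3 only, 0.596 at those with H3K4me3 only, 0.187 at those with neither mark and 0.400 at all autosomal promoters. The median CpG number followed the same order, with 78 in a bivalent window, 43, 81 and 19 in the other classes and 49 over all. CpG islands are stretches where CpG has not been lost to deamination. By a simple island criterion, GC above 50% and a ratio above 0.6 over the whole window, 312 bivalent promoters (34.1%) passed, against 10.1% of the H3K27me3-only, 41.3% of the H3K4me3-only and 22.1% of all promoters. In CpG content the bivalent promoters thus lay close to active promoters. Their genes were also long, with a median of 27113 bp against 9612.5 bp for H3K27me3 only and 22813 bp for H3K4me3 only.

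The windows were not all independent. The 915 windows formed 846 groups that did not overlap, and 135 windows overlapped another bivalent window. A divergent start within 1000 bp was present at 71 of the promoters (7.76%), against 8.74% of all autosomal promoters and 15.7% of those with H3K4me3 only. At 62 of the 71 the partner was bivalent too. Protein-coding genes made up 792 of the promoters and long non-coding RNAs 76, while 45 had no match in the annotation.

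H3K27me3 at these promoters was mostly near the lower bound of the choice. The median over the 3 +/+ animals was 2.96 RPM, with quartiles at 2.40 and 3.84 RPM, and 471 promoters stood below 3 RPM. H3K4me3 had a median of 9.52 RPM with quartiles at 6.88 and 13.9 RPM. At H3K27me3-only promoters the median of H3K27me3 was 3.23 RPM, and at H3K4me3-only promoters that of H3K4me3 was 19.9 RPM. Bivalent promoters therefore carried H3K27me3 at a level close to that of the silent class and H3K4me3 at a lower level than the active class. In each of the 3 +/+ animals on its own, 609 of the 915 promoters (66.6%) passed both bounds.

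The bounds cut through a continuous range. Just inside for H3K27me3 lay Rgs22, with 1.79, 1.98 and 2.23 RPM, and Grin2a, an NMDA receptor subunit, with 2.14, 1.86 and 2.01 RPM. Lpar1 and A530058N18Rik lay just outside. Just inside for H3K4me3 lay Srms, with 4.93, 5.45 and 4.63 RPM, and Otp, a homeobox factor of hypothalamic neurosecretory neurons, with 5.09, 1.23 and 8.74 RPM. Tgif2 and Qrfpr lay just outside. Otp shows that a mean just over the bound may rest on animals far apart.

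A few promoters did not carry the label soundly. Input, the same chromatin sequenced without an antibody, had a median of 0.790 RPM at bivalent promoters and 0.801 RPM at all promoters. It exceeded 3 RPM at 7 of them, which were Gm10800, Gm10801, Gm10722, Gm11399, Gm12735, Sfi1 and Hjurp. Gm10800 had 173 RPM in input against 134 RPM of H3K27me3 and 110 RPM of H3K4me3, and Sfi1 had 30.9 RPM in input against 27.3 RPM of H3K27me3. At these 2 promoters, and at Gm10801, Gm10722 and Gm12735, neither mark was higher than input in the +/+ means. Gm11399 had 26.2 RPM in input against 28.6 RPM of H3K27me3 and 5.79 RPM of H3K4me3. Hjurp had 4.47 RPM in input against 2.69 RPM of H3K27me3 and 28.1 RPM of H3K4me3. The 5 highest H3K27me3 values, at Gm10800, Gm10801, Gm11399, Gm12735 and Sfi1, all belonged to this set. The highest H3K4me3 after Gm10800 was at 2900079G21Rik with 40.7, 35.7 and 41.5 RPM, Gm17566 with 34.8, 34.0 and 42.3 RPM, Kcnc2, a potassium channel of fast-spiking neurons, with 33.2, 31.1 and 39.3 RPM, and Bcl11a, a zinc finger repressor, with 35.2, 32.3 and 35.4 RPM. Without the 7 promoters of high input 908 remained.

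The summit of both marks at the gene start follows from the choice of promoters, and the profile is given as a description. Over 2 kb tiles the +/+ median of H3K27me3 was 1.27 RPM at 9.5 kb before the start, rose to 3.08 RPM at 0.5 kb after it and was 1.21 RPM at 9.5 kb after it. H3K4me3 formed a narrower summit, with 13.9 RPM at 0.5 kb after the start. H3K27me3 stayed above its bound over a median of 7 kb around the start and H3K4me3 over a median of 4 kb. H3K36me3, the mark of transcribed gene bodies, was lowest at the start with 0.14 RPM and reached 0.57 RPM at 9.5 kb into the gene.

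**Figure D1:**
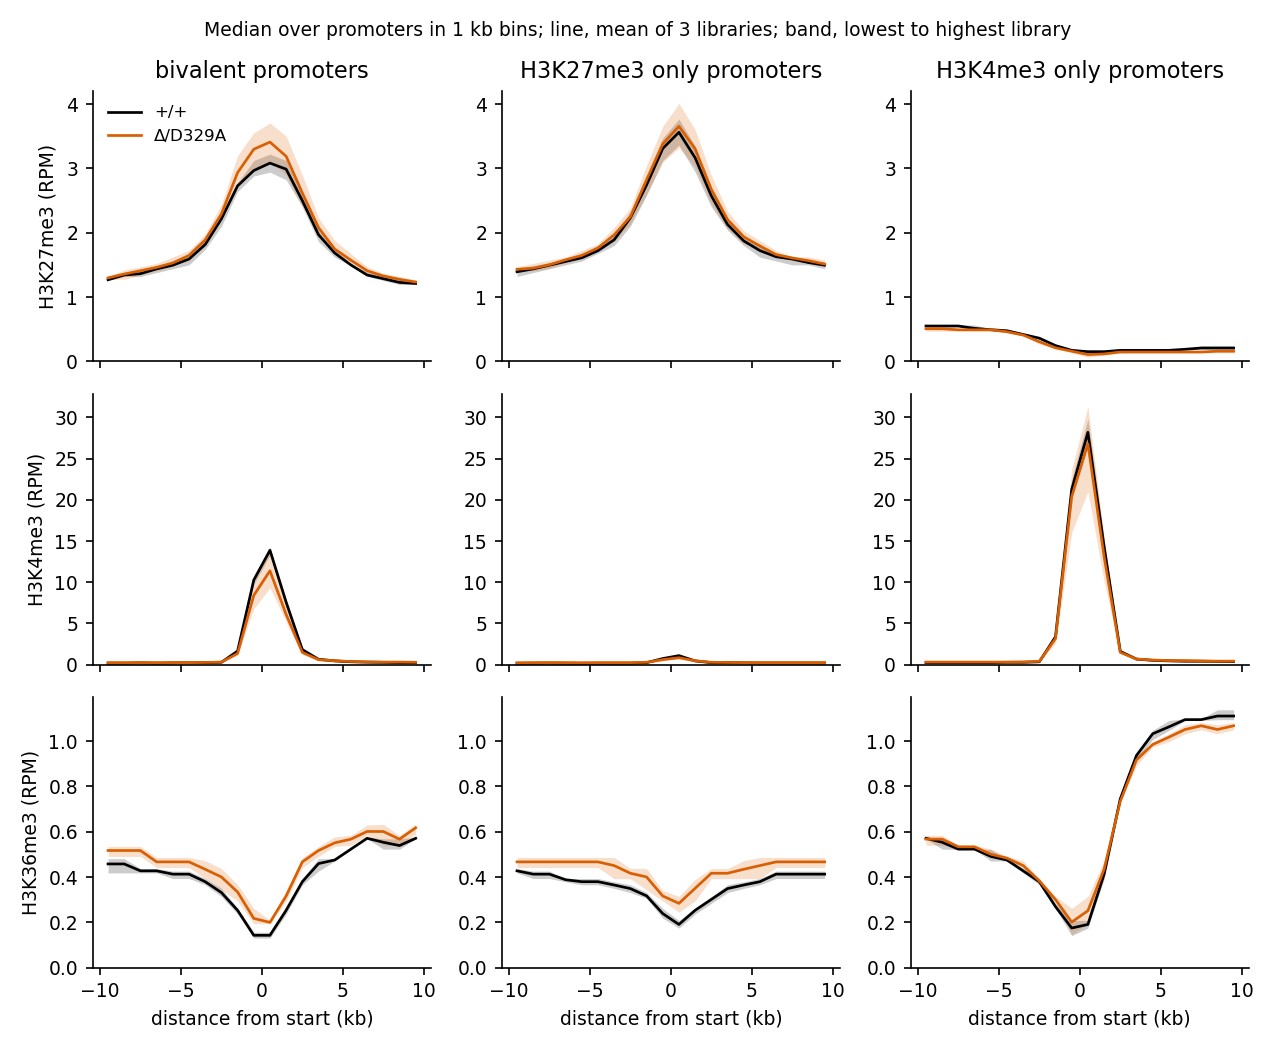
H3K27me3, H3K4me3 and H3K36me3 in RPM against distance from the gene start in kb at bivalent, H3K27me3-only and H3K4me3-only promoters. Each line is the mean over 3 libraries of the median over promoters in 1 kb bins, black for +/+ and orange for Δ/D329A, and the band runs from the lowest to the highest library. At bivalent promoters in +/+, H3K27me3 reaches 3.08 RPM and H3K4me3 13.9 RPM near the start, while H3K36me3 is lowest there.

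**Figure D2:**
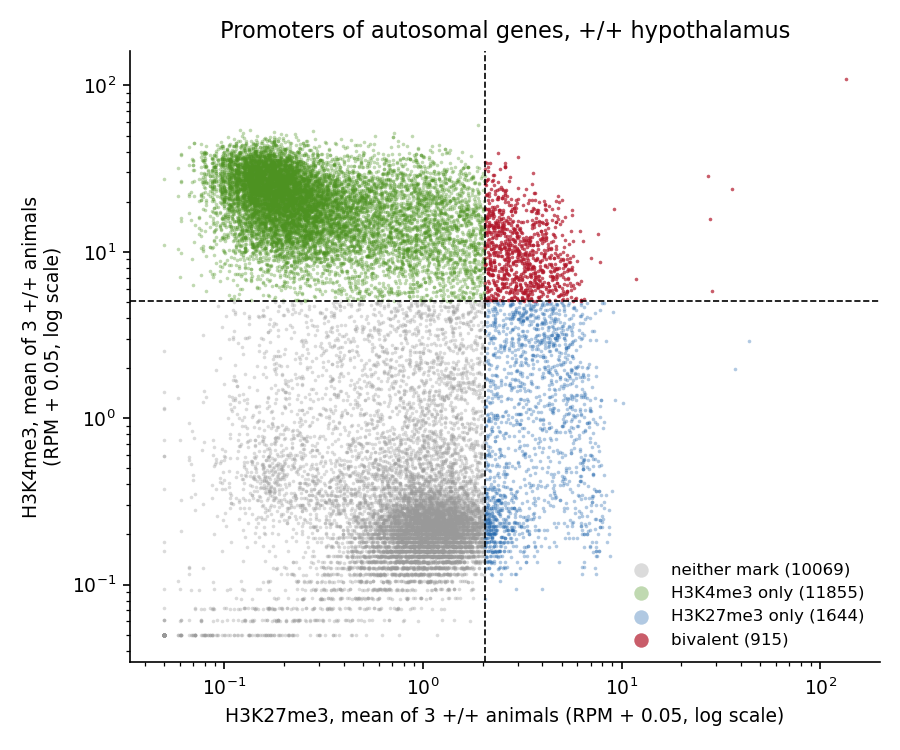
H3K4me3 against H3K27me3 at autosomal promoters, each the mean of 3 +/+ animals in RPM plus 0.05 on log axes, coloured by class, with lines at the bounds of 2 and 5 RPM. The 915 bivalent promoters fill the corner above both bounds without a gap to the other classes.

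The promoters belonged to families of developmental regulators in very unequal shares. None of the 9 Pax, 5 Gata and 5 Tfap2 genes was bivalent, and all of them had H3K27me3 only. By contrast, 5 of 6 Iroquois genes, 3 of 4 Zic genes, 4 of 6 Dlx genes, 5 of 12 LIM homeobox genes and 7 of 18 Sox genes were bivalent. The Dlx factors drive GABA neuron fates and the Zic factors act in dorsal and midline neural tissue. The share over all autosomal promoters was 3.74%. None of the 14 POU domain genes was among them.

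Genes that specify hypothalamic neurons were often among them. Of 28 hypothalamic identity factors 16 were bivalent (57.1%), 10 had H3K27me3 only, 1 had H3K4me3 only and 1 had neither. They included Dlx1, Dlx2, Dlx5, Dlx6, Foxb1, Hmx3, Isl1, Lmx1a, Lmx1b, Nkx2-1, Nkx2-4, Otp, Sim1, Six3 and Tbx3. Among 32 neuropeptide and monoamine enzyme genes there were 4, namely Adcyap1, Npy, Penk and Tac1. Among 16 receptors and signals of appetite and growth there were 5, namely Bdnf, Lepr, Mc4r, Npy1r and Npy5r. Neuropeptides and their receptors are each used by restricted groups of hypothalamic neurons.

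Markers of cell types divided in a similar way. The transporters and enzymes that set a neuron's transmitter were often bivalent, with Gad2 and Slc32a1 among 3 GABA markers and Slc17a6 and Slc17a7 among 3 glutamate markers. Of 5 oligodendrocyte precursor markers 2 were bivalent, the lineage factors Olig1 and Olig2, and of 5 autosomal oligodendrocyte markers 1, Cldn11. Of 6 endothelial markers 3 were bivalent, Cldn5, Flt1 and Kdr, and the other 3 had neither mark. None of the 6 markers common to all neurons and none of the 6 microglial markers was. Among chromatin enzymes, 1 of 28 genes acting on or reading H3K27 methylation was bivalent, Cbx8, a chromobox subunit of Polycomb repressive complex 1. None of 11 H3K4 methylation genes and none of 8 DNA methylation genes was. The gene lists were drawn up with earlier results of these data known.

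Genes with a bivalent promoter were expressed at a low but measurable level. In each library the median over the 915 genes lay between -0.69 and -0.09 log2 RPKM in +/+ and between -0.66 and -0.30 in Δ/D329A. For H3K27me3-only genes the medians were -4.11 to -3.75 in +/+, and for H3K4me3-only genes 1.47 to 2.20. The 3 ranges did not overlap, and bivalent genes stood between the others in all 9 libraries. Over all autosomal genes the +/+ medians were -1.05 to -0.51, and the bivalent median was the higher in each of the 9 libraries. Reads were present in every library for 767 bivalent genes (83.8%), against 33.1% of H3K27me3-only and 92.8% of H3K4me3-only genes. A gene without reads carries a value equal to 0.9 reads in the deposited table, so the medians of the mostly silent classes move with depth.

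The levels covered a wide range. Of the 915 genes, 130 (14.2%) stood below 0.1 RPKM, 406 (44.4%) from 0.1 to 1 RPKM, 333 (36.4%) from 1 to 10 RPKM and 46 (5.03%) at 10 RPKM or more. Apart from Gm10800 and Gm10801, which have the high input given above, the highest were Tmem130, a transmembrane protein, with 6.39 to 7.57 log2 RPKM in +/+, Mt1, a metallothionein that binds zinc and copper, with 5.85 to 6.91, and Nefl, the light neurofilament subunit, with 5.10 to 6.36. Among genes read in every library the lowest were Gm4117, Myocd, a coactivator of the smooth muscle programme, and 2900079G21Rik. Myocd had -6.76 to -3.84 log2 RPKM in +/+. The class thus joined abundant genes with genes near the limit of detection.

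Within the class, expression was lower where H3K27me3 was higher and higher where H3K4me3 was higher. With the promoters in 4 equal bins, from lowest to highest H3K27me3, the median +/+ expression was 0.31, -0.43, -0.66 and -0.96 log2 RPKM. From the lowest to the highest bin of H3K4me3 it was -1.19, -0.83, -0.17 and 0.51. Spearman's rho across the 915 promoters was -0.18 between H3K27me3 and expression and 0.28 between H3K4me3 and expression. Between the marks themselves it was -0.23, which is a description of the chosen range, since both values were bounded from below by the choice. Promoters are not independent replicates, and they share the libraries in which they were measured. CpG content went up with H3K27me3, from a median ratio of 0.501 in the lowest bin to 0.606 in the highest.

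**Figure D3:**
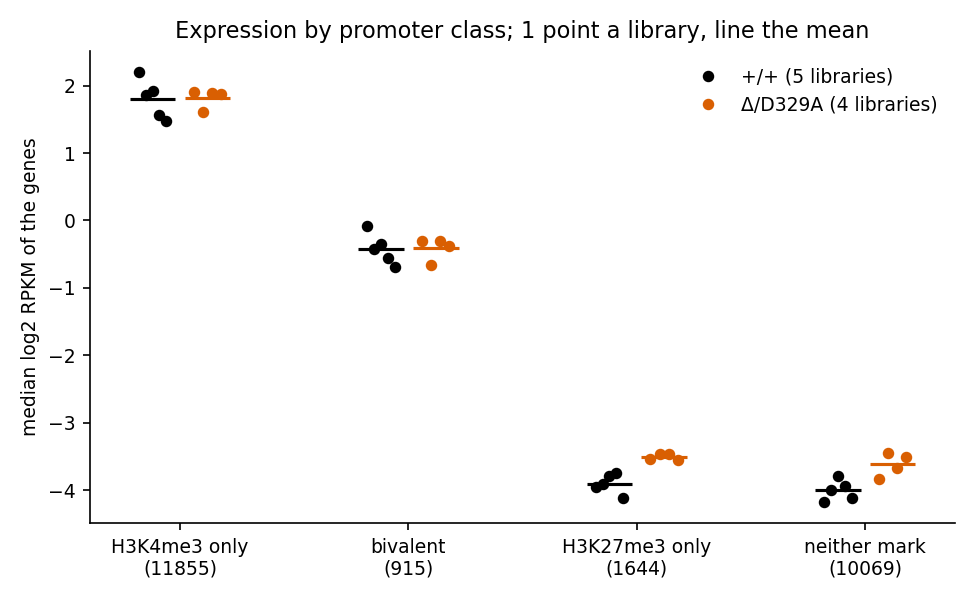
Median expression in log2 RPKM of the genes of each promoter class, 1 point for each of 5 +/+ (black) and 4 Δ/D329A (orange) libraries, with a line at the mean. The bivalent class lies between -0.69 and -0.09 in +/+, below the H3K4me3-only class and above the H3K27me3-only class.

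The RNA comparison asked whether genes with a bivalent promoter in +/+ were expressed at another level in Δ/D329A. Expression played no part in the choice of promoters. Of 809 such genes that passed the filter on low values, 1 was called by limma at an adjusted p under 0.01. Over all 17839 genes tested the share called was 0.107%, with 0.0841% higher and 0.0224% lower. The gene was Nr2e1, the nuclear receptor Tailless, which maintains neural stem cells. At an unadjusted p under 0.05, 63 of the 809 were higher and 66 lower, against 822 higher and 538 lower of all 17839. The median log2 difference was 0.02 against 0.06 over all genes. Without overlap between the 4 mutant and 5 +/+ values, 35 of the 915 genes were higher and 22 lower, where 4.1% and 0.829% of all genes were. In share of the class these were 3.83% higher and 2.40% lower. The shares over all genes joined unlike classes. Of 11855 H3K4me3-only genes, 157 were higher and 137 lower. Of 1644 H3K27me3-only genes, 156 were higher and 14 lower. Of 10069 genes with neither mark, 657 were higher and 30 lower, and 19.9% of that class had reads in every library.

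Nr2e1 had 52, 39, 44, 38 and 49 reads in the +/+ libraries and 10, 12, 14 and 8 in the Δ/D329A libraries. On the log2 RPKM scale these were -0.39, -0.57, -0.17, -0.60 and -0.35 against -2.44, -1.70, -1.82 and -2.37. All 4 mutant values lay below all 5 +/+ values. The log2 difference was -1.66 ± 0.21 (SE), with an adjusted p of 0.0091 by limma, and the two-sided exact permutation p was 0.00794, the smallest that 5 against 4 allows. The call was lost when any single library was left out, with adjusted p values by limma of 0.012 to 0.043 and log2 differences of -1.79 to -1.54. The promoter marks in the ChIP animals overlapped between groups. H3K27me3 was 5.07, 5.64 and 6.17 RPM in +/+ and 4.94, 6.04 and 5.33 RPM in Δ/D329A. H3K4me3 was 15.3, 8.28 and 11.2 RPM in +/+ and 3.86, 9.27 and 7.33 RPM in Δ/D329A.

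Count models run on the whole reads recovered from the RPKM values called more genes. edgeR's quasi-likelihood test called 16 of 699 bivalent genes, 8 higher and 8 lower, where 0.555% of all 13868 genes were called. DESeq2 called 38 of 828, 21 higher and 17 lower, where 1.51% of 16484 genes were called. All 16 genes of edgeR were among the 38 of DESeq2. In direction, the 8 higher genes by edgeR stood beside 0.288% of all genes and the 8 lower beside 0.267%, and the 21 and 17 genes of DESeq2 beside 0.801% and 0.71%. The 3 tools thus gave 1, 16 and 38 bivalent genes from the same libraries.

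The largest rises by edgeR were in a receptor subunit and a receptor partner. Gabrd, whose start lies at position 155398112 of chromosome 4 (GRCm38, minus strand), encodes the δ subunit of extrasynaptic GABA-A receptors. It had 0.16, -0.54, -0.18, -1.48 and -1.35 log2 RPKM in +/+ and 2.18, 0.81, 0.55 and 1.25 in Δ/D329A, without overlap. The difference was 1.87 ± 0.41 (SE), with adjusted p values of 0.18 by limma, 0.0053 by edgeR and 1.1e-06 by DESeq2. Ramp3, with its start at position 6658521 of chromosome 11 on the plus strand, encodes a partner protein that sets the ligand preference of calcitonin-family receptors. It had 1.69, 1.78, 1.98, 0.49 and 1.55 log2 RPKM in +/+ and 3.81, 3.5, 2.72 and 3.39 in Δ/D329A, again without overlap. The difference was 1.86 ± 0.31 (SE), with adjusted p values of 0.0497 by limma, 0.0014 by edgeR and 4.1e-10 by DESeq2. H3K4me3 at both promoters was highest in Δ/D329A replicate 2, with 15.9 RPM at Gabrd and 14.7 RPM at Ramp3, while the other 2 mutant animals had 2.63 and 3 RPM at Gabrd and 3.86 and 5.58 RPM at Ramp3.

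Cbx8 had 0.93, 0.11, 0.11, -0.31 and -0.56 log2 RPKM in +/+ and 1.03, 1.01, 1.3 and 1.33 in Δ/D329A. Every mutant value exceeded every +/+ value. The difference was 1.11 ± 0.27 (SE), with adjusted p values of 0.24 by limma, 0.0058 by edgeR and 2.4e-05 by DESeq2. Frem3, an extracellular matrix protein, and Ppp1r1b, the dopamine-regulated phosphatase inhibitor DARPP-32, were higher by 1.03 and 1.01 on the log2 scale, with adjusted p values of 0.18 and 0.14 by limma and of 0.0073 and 0.0063 by edgeR. For both genes all 4 mutant values lay above all 5 +/+ values.

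Among genes called lower by edgeR and DESeq2, Col19a1, a fibril-associated collagen, had 0.19, -0.52, 0.10, -0.40 and -0.16 log2 RPKM in +/+ and -1.16, -1.53, -0.99 and -1.09 in Δ/D329A. The difference was -1.04 ± 0.21 (SE), with adjusted p values of 0.14 by limma, 0.0074 by edgeR and 0.00014 by DESeq2. Ngb, the neuronal globin, differed by -0.96, but its mutant range of 2.48 to 3.18 log2 RPKM overlapped the +/+ range of 2.87 to 4.69. Its adjusted p was 0.36 by limma and 0.0098 by edgeR. Pon2, a paraoxonase, differed by -0.89 with no overlap between 0.34 to 1.15 in Δ/D329A and 1.35 to 2.10 in +/+, and its adjusted p was 0.28 by limma and 0.0033 by edgeR. The other genes called lower by edgeR were AW551984, Adcyap1, Gpr83 and Sim1, and the other genes called higher were Onecut2, Rgs16 and Rsrc1.

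The hypothalamic lists held a few of these calls. Of the 16 bivalent identity factors, 1 was called by edgeR and 2 by DESeq2, all lower, where 0.267% and 0.71% of all genes were called lower. Sim1, with its start at position 50895651 of chromosome 10 on the plus strand, a factor needed for paraventricular neurons and for the control of feeding, had 0.96, 1.18, 1.19, 1.09 and 0.81 log2 RPKM in +/+ and 0.20, -0.12, 0.32 and 0.49 in Δ/D329A, without overlap. Its difference was -0.82 ± 0.17 (SE), with adjusted p values of 0.16 by limma, 0.0092 by edgeR and 0.00011 by DESeq2. Foxb1, a factor of the mammillary region, was the one added by DESeq2, with a difference of -0.92 and an adjusted p of 0.0093 by that tool.

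Of the 4 bivalent neuropeptide genes, 1 was called by edgeR and 2 by DESeq2, again lower, beside the same shares of 0.267% and 0.71%. Adcyap1, which encodes PACAP, had 4.52, 4.15, 4.25, 3.93 and 3.62 log2 RPKM in +/+ and 3.45, 2.93, 3.48 and 3.62 in Δ/D329A. The lowest +/+ and the highest mutant value were both 3.62, and the difference was -0.73 ± 0.20 (SE), with adjusted p values of 0.34 by limma, 0.0016 by edgeR and 2.6e-09 by DESeq2. Tac1, the substance P precursor, differed by -0.63, with an adjusted p of 0.00037 by DESeq2 and 0.014 by edgeR. Npy and Penk had differences of -0.70 and -0.11 and passed no test. H3K4me3 at all 4 promoters was lower in every mutant animal than in every +/+ animal, where 25.1% of bivalent and 4.28% of all promoters were, with 6.74, 8.18 and 6.60 RPM against 4.42, 2.80 and 2.65 RPM at Adcyap1. At Npy these were 6.29, 6.88 and 5.75 RPM against 1.10, 3.90 and 2.36 RPM.

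None of the 5 bivalent appetite and growth genes was called by any of the tools. Bdnf, a neurotrophin and the only bivalent promoter among 15 genes that the study followed for expression, had a difference of -0.47 ± 0.26 (SE) with an adjusted p of 0.43 by limma. The study itself, with DESeq at an adjusted p under 0.01, listed Bdnf as downregulated. Of those 15 genes, 10 had H3K27me3 only, Matn1, Lect1 and Dct had neither mark and Sirt1 had H3K4me3 only. Most genes followed by the study thus fell outside the bivalent class as defined here.

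Some marker lists differed in the same comparison. All 6 thalamic markers had a higher mean in Δ/D329A, and their summed level was 54.7 to 84.4 RPKM in +/+ and 76.3 to 104 RPKM in Δ/D329A. Of the 6 cortical markers 5 were higher, with sums of 12.1 to 22.2 and 19.3 to 28.4 RPKM. The 6 choroid plexus markers summed to 2.10 to 3.46 RPKM in +/+ and 2.95 to 5.42 RPKM in Δ/D329A, 4 of them higher. Microglial and endothelial markers were higher for 5 of 6 each, with sums of 19.7 to 39.9 and 11.9 to 28.1 RPKM in +/+ and 24.0 to 39.4 and 17.2 to 22.4 RPKM in Δ/D329A. Oligodendrocyte precursor markers were higher for 0 of 5 and oligodendrocyte markers for 1 of 6, with sums of 27.5 to 63.1 and 256 to 398 RPKM in +/+ and 27.4 to 38.5 and 192 to 356 RPKM in Δ/D329A. The lists of medial habenula (3 of 6 higher) and striatum (2 of 5 higher, Ppp1r1b among the 5) were divided, and their mutant sums of 71.6 to 86.8 and 9.27 to 10.4 RPKM lay within the +/+ ranges. No marker of these lists was without reads in all libraries. Of the thalamic markers, Calb2, Lef1, Prkcd and Tcf7l2 have bivalent promoters. The part of these markers in the expression differences was not tested.

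**Figure D4:**
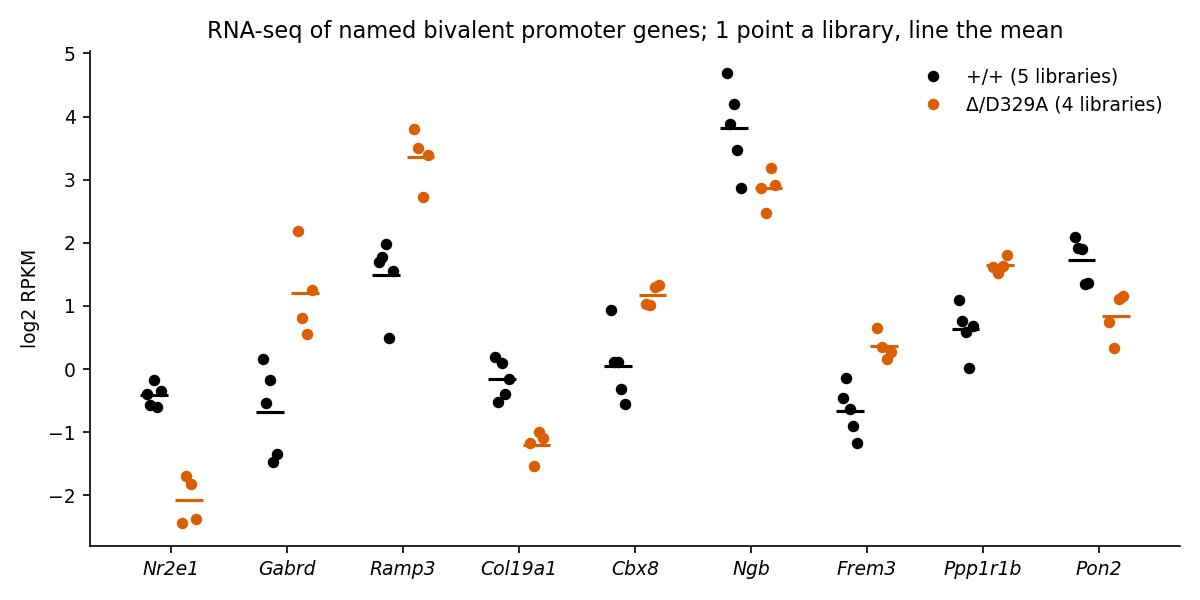
Expression in log2 RPKM of Nr2e1, called by limma, and of 8 genes called by both edgeR and DESeq2, 1 point for each of 5 +/+ (black) and 4 Δ/D329A (orange) libraries, with a line at the mean. The groups are apart for every gene shown except Ngb.

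At the promoters themselves, the marks in Δ/D329A are a description, since +/+ values of the same libraries chose the promoters. H3K27me3 had library medians of 2.96, 2.88 and 3.15 RPM in +/+ and 3.33, 3.04 and 3.55 RPM in Δ/D329A. The median log2 ratio was 0.09, with -0.03 over all autosomal promoters. All 3 mutant values lay above all 3 +/+ values at 113 promoters and below them at 110. Over all autosomal promoters the shares were 6.42% and 7.46%. The highest of the 4 bins of +/+ H3K27me3 held 67 of the 110 lower promoters and 6 of the 113 higher ones. Because +/+ values chose the promoters, nothing is read from these counts.

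H3K4me3 had library medians of 9.64, 9.24 and 9.89 RPM in +/+ and 6.59, 9.82 and 7.58 RPM in Δ/D329A. The second mutant animal stood with the +/+ animals and the other 2 below them. The median log2 ratio was -0.25, with -0.04 over all promoters, and it was -0.56, -0.01 and -0.30 in the mutant animals one by one. All mutant values lay below all +/+ values at 230 promoters and above them at 10. The shares over all promoters were 4.28% and 1.87%. Without Δ/D329A replicate 1, the library that stood apart, 239 were lower and 59 higher, with 11.2% and 10.3% over all promoters.

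By the mean of the 3 Δ/D329A animals, 665 of the 915 promoters (72.7%) still passed both bounds. Of the 250 others, 176 passed for H3K27me3 only and 74 for H3K4me3 only, and 125 had stood below 3 RPM of H3K27me3 in +/+. A further 274 promoters passed both bounds in Δ/D329A alone, of which 243 had H3K4me3 only in +/+. Counted by mutant means there were 939 bivalent promoters. Without Δ/D329A replicate 1 the mutant means gave 1007, of which 709 were among the 915. Crossings went both ways.

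Among promoters without overlap, H3K27me3 was lowest relative to +/+ at Onecut2, Onecut1, Aatf, Shox2 and Foxc1. Onecut1 and Onecut2 encode homeobox factors of neurons and liver. Onecut1 had 4.72, 3.96 and 4.29 RPM in +/+ and 1.75, 1.55 and 1.90 RPM in Δ/D329A. Onecut2 had 4.18, 4.26 and 3.77 RPM in +/+ and 1.18, 2.23 and 0.914 RPM in Δ/D329A. Foxc1, a forkhead factor of mesenchyme and vessels, had 5.41, 5.31 and 5.13 RPM against 2.55, 2.92 and 2.16 RPM. At these promoters the mark was well under its +/+ level in all 3 mutant animals. Shox2, a homeobox factor expressed in thalamus, had 6.51, 5.82 and 5.83 RPM against 3.13, 2.75 and 2.39 RPM. Cbx8 had 2.55, 2.52 and 3.40 RPM against 0.908, 1.70 and 1.5 RPM.

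H3K27me3 was highest relative to +/+, again among promoters without overlap, at Mocos, Bcat1, Frzb, Myb and Ch25h. Ch25h, which makes the signalling oxysterol 25-hydroxycholesterol, had 2.86, 2.73 and 2.65 RPM in +/+ and 5.08, 3.82 and 4.67 RPM in Δ/D329A. Bcat1, the cytosolic aminotransferase of branched-chain amino acids, had 2.45, 2.58 and 2.68 RPM against 4.77, 4.32 and 5.56 RPM. Myb, a transcription factor of blood progenitors, had 2.23, 2.52 and 2.60 RPM against 4.17, 3.95 and 4.72 RPM. These 3 promoters also had less H3K4me3 in every mutant animal, with 12.4, 14.2 and 13.6 RPM against 4.89, 8.16 and 7.55 RPM at Myb. Expression of Bcat1 differed by -0.35 ± 0.20 (SE), called by DESeq2 alone with an adjusted p of 0.0017.

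Where the animals did not overlap between groups, promoters with the highest H3K4me3 relative to +/+ included Onecut1, Onecut2, Dlx2 and Dlx5. Onecut1 had 7.18, 7.35 and 8.24 RPM in +/+ and 11.4, 16.2 and 18.1 RPM in Δ/D329A. Dlx2 had 5.94, 3.89 and 5.65 RPM against 6.62, 8.68 and 12 RPM. The mutant animals were all higher, by amounts that differed between them. Those with the lowest, likewise without overlap, included Neurod6, Gm14261, Lmx1b and Emx2os. Neurod6, a factor of cortical pyramidal neurons, had 7.68, 5.69 and 1.81 RPM in +/+ and 0.721, 0.158 and 0.323 RPM in Δ/D329A. Lmx1b had 6.29, 17.3 and 5.58 RPM against 4.17, 1.34 and 0.678 RPM. The +/+ animals themselves were thus far apart at Lmx1b, with +/+ replicate 2 the highest.

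The marks lay on opposite sides of +/+ at 64 promoters. At 8 of them H3K27me3 was lower and H3K4me3 higher in all mutant animals, a pattern shown by 0.245% of all promoters. These were Dlx2, Dlx5, Fgf5, Foxc1, Foxf1a, Onecut1, Onecut2 and Tbx3, 7 of them with transcription factors. Mean expression was higher in Δ/D329A for 7 of the 8, with a median log2 difference of 0.44. With no filter on low values, that median was 0.05 over the 915 genes and 0.18 over all autosomal genes. Of the 8 genes, Onecut2 was the only one called by edgeR. It had 0.88, 1.07, 1.14, 0.67 and 0.76 log2 RPKM in +/+ and 1.72, 1.5, 1.59 and 1.79 in Δ/D329A. The difference was 0.74 ± 0.15 (SE), with adjusted p values of 0.14 by limma, 0.0072 by edgeR and 9.5e-06 by DESeq2. Onecut1 had -1.0, -1.5, -1.58, -1.13 and -0.96 log2 RPKM against -0.51, -0.08, -0.80 and -0.60, and was not called by any of the tools.

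At 56 promoters H3K27me3 was higher and H3K4me3 lower, a pattern shown by 0.874% of all promoters. Mean expression was higher in Δ/D329A for 18 of the 56, and the median log2 difference was -0.19. Both marks were lower at 5 promoters, namely A830031A19Rik, Nkx6-2, Otx1, Prdm8 and Sim1, a pattern shown by 0.172% of all promoters, and both were higher at none, against 0.0899%. Without Δ/D329A replicate 1 the patterns held 41 promoters (lower H3K27me3 with higher H3K4me3, 1.47% of all), 83 (the reverse, 1.90% of all), 10 (both lower, 257 among all promoters) and 2 (both higher, 0.870%). Mean expression was then higher for 33 of the 41 and 31 of the 83. Across the 915 promoters Spearman's rho was -0.47 between the log2 ratios of the marks. It was 0.35 between the H3K4me3 ratio and the log2 difference in expression and -0.19 between the H3K27me3 ratio and that difference. Without that animal these were -0.45, 0.32 and -0.21. The marks and the RNA came from different animals, and the promoters share their libraries.

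The H3K4me3 of the genes called in RNA was also counted. Over all 915 promoters, 135 (14.8%) had a higher mean H3K4me3 in Δ/D329A. Of the 8 genes called higher by edgeR all 8 had, but in 1 alone was every mutant animal higher, and 5 had a lower mean H3K27me3. Of the 8 called lower, none had a higher mean and 4 were lower in every mutant animal. By DESeq2 a higher mean was present at 16 of 21 higher genes, with 1 higher in every animal, and at 1 of 17 lower genes, with 12 lower in every animal. Without Δ/D329A replicate 1, a higher mean was present at 8 of the 8 and 18 of the 21 higher genes, 1 of the 8 and 2 of the 17 lower genes and 293 of the 915. The 12 of 17 and 4 of 8 lower genes did not change in number, and 4 of 8 and 7 of 21 higher genes were then higher in each of the other animals. Because +/+ H3K4me3 chose the promoters, these are counts with no test.

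**Figure D5:**
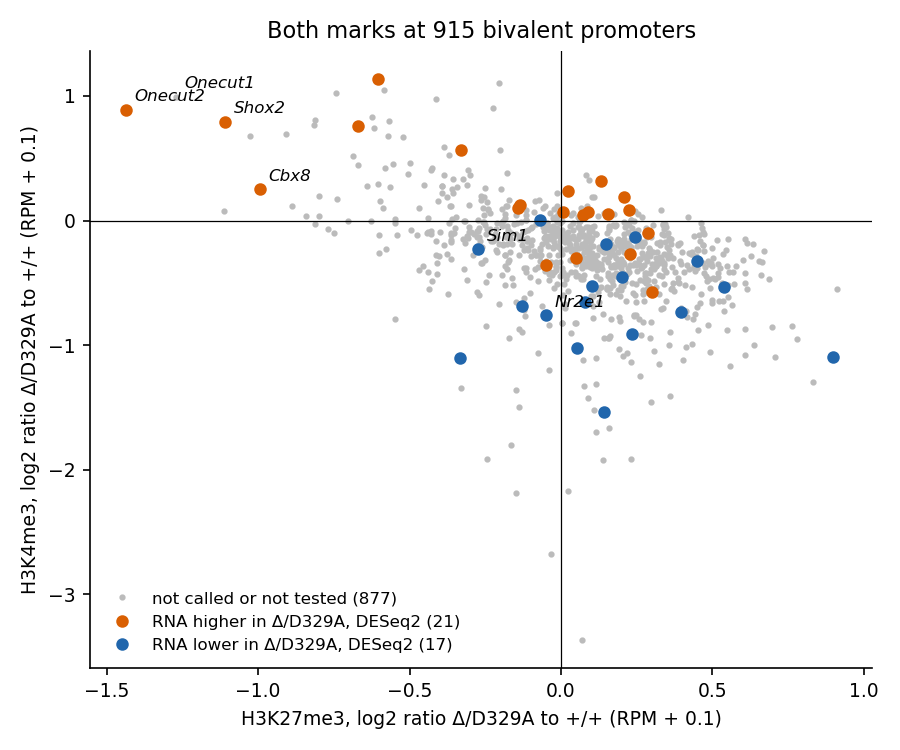
Log2 ratio of Δ/D329A to +/+ for H3K4me3 against that for H3K27me3, from means of 3 animals in RPM plus 0.1, at the 915 bivalent promoters. Orange and blue points are the 21 genes with higher and the 17 with lower RNA by DESeq2 and grey points are the rest. Onecut1 and Onecut2 lie at lower H3K27me3 and higher H3K4me3.

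H3K36me3 played no part in the choice of promoters and was tested. It is deposited along transcribed gene bodies, and the PWWP domain altered by D329A reads it. At bivalent promoters it was low, with library medians of 0.153, 0.166 and 0.183 RPM in +/+ and 0.219, 0.197 and 0.262 RPM in Δ/D329A. All 3 mutant medians lay above all 3 +/+ medians. Over all autosomal promoters the medians were 0.263, 0.261 and 0.288 RPM and 0.268, 0.295 and 0.341 RPM. Of 445 bivalent promoters that passed the filter on low values, 1 was called by limma at an adjusted p under 0.05, where 0.0582% of 17184 promoters were called. At an unadjusted p under 0.05 there were 69, all higher, against 1010 higher and 220 lower of all 17184. The median log2 difference was 0.33 against 0.10 over all promoters tested. Without the filter, the median log2 ratio of group means was 0.31 at bivalent and 0.25 at H3K27me3-only promoters. It was 0.14 at H3K4me3-only promoters and 0.06 at those with neither mark. In +/+ the median ratio of H3K36me3 to input was 0.21 at bivalent promoters and 0.34 over all. Without overlap, 183 of the 915 were higher and 10 lower, against 9.24% and 2.68% of all promoters. The other 470 bivalent promoters fell below the filter, which took the mean over the libraries of both genotypes. A promoter low in +/+ could therefore pass through its mutant values. With all 915 tested and no filter, limma called 0 at the adjusted threshold and 135 at an unadjusted p under 0.05, and the median log2 difference was 0.30 against 0.11 over all promoters.

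The called promoter was that of Cdkn2b, which encodes the cell-cycle inhibitor p15. H3K36me3 was 0.197, 0.0474 and 0.183 RPM in +/+ and 0.852, 0.590 and 0.918 RPM in Δ/D329A. Every +/+ value lay under the filter of 0.2 RPM, so the promoter passed it only through its mutant values. The mutant animals were all above the +/+ animals, and the difference on log2(RPM + 0.1) was 1.92 ± 0.31 (SE), with an adjusted p of 9.9e-05 by limma. As a ratio to input the difference was 1.74 with an adjusted p of 0.12 by limma, and without the filter on low values the adjusted p was 0.66, so the call ended under both. H3K27me3 there was 4.56, 4.62 and 4.73 RPM in +/+ and 2.96, 3.71 and 4.52 RPM in Δ/D329A, all lower. H3K4me3 was 6.64, 5.45 and 5.52 RPM in +/+ and 6.49, 8.48 and 6.58 RPM in Δ/D329A, with overlap. Expression was -3.09, -2.44, -2.22, -3.43 and -4.55 log2 RPKM against -0.54, -1.87, -2.21 and -0.78, a difference of 1.80 ± 0.50 (SE) with an adjusted p of 0.33 by limma. edgeR on the recovered reads called 2 of 332 promoters, Cdkn2b and Zic4, where 0.0543% of 14722 were called.

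Over gene bodies, H3K36me3 of bivalent genes had a +/+ median of 0.624 RPM, against 0.436 RPM for H3K27me3-only and 1.45 RPM for H3K4me3-only genes. limma called none of 820 bivalent genes and 1 of all 18934 (0.00528%). At an unadjusted p under 0.05 there were 61 higher and 38 lower, against 871 higher and 2362 lower of all 18934. The median log2 difference was 0.03 against -0.03 over all genes tested. edgeR on the recovered reads called 26 of 816, 23 higher and 3 lower, where 0.777% of all genes were called, 0.588% of the 19054 higher and 0.189% lower. The largest rises were at Zic1, Zic4, Cdkn2a, Foxc1, Six3, Otp and Onecut1. The animals overlapped between groups at Zic1 and Cdkn2a. Zic1 had 0.369, 0.393 and 0.621 RPM in +/+ and 0.501, 2.02 and 0.930 RPM in Δ/D329A. Zic4 had 0.254, 0.256 and 0.331 RPM in +/+ and 0.546, 0.719 and 0.595 RPM in Δ/D329A, and Onecut1 had 0.388, 0.451 and 0.402 RPM against 0.887, 0.722 and 0.841 RPM. The 3 lower genes were Ccnd2, Mme and Pstpip2, and Ccnd2, the cyclin D2 gene, had 1.35, 1.14 and 1.14 RPM against 0.682, 0.525 and 0.552 RPM.

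Input was called at none of the 915 bivalent promoters by limma or by edgeR, where 0% of 23954 and of 23943 promoters were called. At an unadjusted p under 0.05 limma gave 63 of the 915 and 1227 of all 23954.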

How the data were processed

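RNA-seq reads were trimmed with Trim Galore 0.4.3 and mapped to GRCm38 with HISAT2 2.0.5 according to the submitters' notes, and the authors deposited log2 RPKM values per gene, quantified in SeqMonk. For ChIP-seq, mapped with Bowtie2 2.3.2, the authors deposited a signal in tiles of 2000 bp every 1000 bp, as reads scaled to the uniquely mapped total (RPM). Multiplying by depth returned whole reads for 100% of the ChIP values (tolerance 0.01 reads) and, where a gene had reads, for the RNA table of 25965 genes within the same tolerance plus rounding of the deposited digits. A gene without reads carries a placeholder worth 0.9 reads, set to 0 in the count models. The 1482 genes on X, Y and the mitochondrial genome were left out of the promoter set. Each promoter averaged 2 tiles. The last tile of each autosome ended where GRCm38 does. Replicates were individual animals. Bisulfite libraries were not analysed here.

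The promoters, gene lists and rules for naming genes were chosen with earlier results of these data known. The main RNA test was limma 3.58.1 (R 4.3.3) with trend on log2 RPKM, keeping genes that reached 0.1 RPKM in 4 or more libraries, with Benjamini-Hochberg adjusted p under 0.01. Promoter H3K36me3, gene-body H3K36me3 and input were tested with limma on log2(RPM + 0.1) where the mean reached 0.2 RPM, at an adjusted p under 0.05, and gene bodies needed at least 3 tiles. A fold change on that scale understates the change of low values. edgeR 4.0.16 (quasi-likelihood) and DESeq2 1.42.0 on recovered reads were alternatives. Single genes also had two-sided exact permutation tests over 126 splits. All fits ran over all genes or promoters, and the scripts were tested on simulated data. H3K27me3 and H3K4me3 were described without a test. Named were the genes called by limma, up to 8 called by both count models, those with the highest levels and the largest differences without overlap in either mark, those next to the bounds, those called for H3K36me3, members of the hypothalamic and enzyme lists, and genes followed by the study. Genes outside this rule (the other edgeR calls, the 8 and 5 promoters with changes of both marks) were named after their values were seen. Sequences were read from RefSeq promoter tables on GRCm38.p6, in which 613 of the 915 symbols matched and 552 starts lay within 500 bp of that in the deposited table. Alternatives covered the pseudocount, filters, thresholds, centring, scaling to input, the window, the bounds and leaving out each library. Some genes that this rule would name are not reported here.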

Additional observations from a re-analysis of the deposited data

How the results depend on the processing

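The count of bivalent genes called in RNA-seq was 1 with limma and depended on the setting: 4 at an adjusted p under 0.05 (Edaradd, Gm2301, Nr2e1 and Ramp3), 16 with edgeR, 38 with DESeq2, 2 after centring each library on its median (Adcyap1 and Ramp3) and 0 with a filter at 0.5 RPKM. Over all genes these settings called 35, 77, 249, 34 and 11, against 19. Leaving out each library gave 0 to 1, where the 1 was Klrg2 without +/+ replicate 4, with 103 to 148 at an unadjusted p under 0.05. Same-numbered RNA libraries did not deviate together (correlations of -0.05 to 0.14), and a fit on replicates 1 to 4 called 0 bivalent genes both with the replicate block and without it. With a replicate block, promoter H3K36me3 kept 1 call and gene bodies 0. At promoters, H3K36me3 calls numbered 2 with edgeR, 2 with a block for mitochondrial coverage, 2 with a pseudocount of 0.5 RPM, 0 without a filter and 0 as a ratio to input, and 1 to 5 when each library was left out. The 5 came without Δ/D329A replicate 1 and were Cdkn2b, Zic4, Gm10722, Gm10800 and Gm10801, the last 3 with high input. Over gene bodies edgeR called 26, against 0 by limma and 0 to 0 without each library, and 148 against 1 over all genes. The number of bivalent promoters was 444 with H3K27me3 at 3 RPM or more, 421 with H3K4me3 at 10 RPM or more and 441 after subtracting input, and 887 to 936 without each +/+ animal. The median H3K4me3 log2 ratio was -0.53 within the animals whose H3K4me3 libraries had low mitochondrial coverage (+/+ 1 and 2, Δ/D329A 1). It was -0.15 within the others and -0.42 to -0.13 without each library. The only mutant of the low set was the library that stood apart, with a ratio of -0.56 on its own. The sets do not hold for input, where +/+ replicate 1 had the highest mitochondrial coverage, with 83.0 RPM. Centring moved the median H3K4me3 ratio from -0.25 to -0.07 and the median over all promoters from -0.04 to 0.15. The gap between these medians thus stayed near its first value. The median H3K27me3 log2 ratio was 0.02 to 0.14 without each library, and the median +/+ expression -0.56 to -0.38 log2 RPKM. For single genes, 190 of 229 alternative values stayed on the same side of the threshold, 24 passed it, 15 no longer did and 0 changed sign. Nr2e1 lost its call in 13 settings and kept it in 5, and Cdkn2b lost it in 2 and kept it in 11. The other genes counted had been chosen as calls of edgeR and DESeq2, which were themselves among the alternatives. Their passes under those tools thus followed from the choice, and their unchanged values were limma results that stayed uncalled. The alternatives with mitochondrial coverage, edgeR on ChIP reads, removal of high-input promoters, H3K4me3 without Δ/D329A replicate 1 and the unblocked fit on replicates 1 to 4 were added after the data had been seen. The causes were not tested. Depth limits the silent genes most, and 24 bivalent genes had no reads in any library.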

Other observations

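Mt1 was the only bivalent promoter at which H3K27me3 divided by 2-fold or more between animals of low and high mitochondrial coverage rather than by genotype. It had 13.6, 13.2 and 0.595 RPM in +/+ and 20.4, 1.68 and 3.25 RPM in Δ/D329A, and its +/+ input was 2.57 RPM. The 3 animals with the high values, +/+ replicates 1 and 2 and Δ/D329A replicate 1, were those with the lower mitochondrial coverage in the H3K4me3 libraries. H3K4me3 at Mt1 was 17.5, 16.8 and 19.4 RPM in +/+ and 11.8, 16.7 and 11.7 RPM in Δ/D329A.

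Several bivalent promoters of regional factors varied between animals of one genotype. H3K4me3 at Shox2 was 1.68, 4.95 and 12.5 RPM in +/+ and 4.33, 25.5 and 3.52 RPM in Δ/D329A. At Zic1 it was 3.79, 4.02 and 9.00 RPM in +/+ and 4.20, 23.2 and 9.97 RPM in Δ/D329A, and at Lef1 6.32, 4.52 and 8.21 RPM against 4.61, 15 and 1.77 RPM. At all 3 promoters Δ/D329A replicate 2 was the highest of the 6 animals. The summed H3K4me3 at the promoters of the 6 thalamic markers, Lef1 among them, was 73.9, 75.1 and 86.8 RPM in +/+ and 57.8, 103 and 68.9 RPM in Δ/D329A, also highest in that animal. The part of regional composition in these values was not tested.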
